A study of Mus musculus with 6 samples.

Results

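The genes described here are 38 genes of protein folding, stress signalling and degradation in the endoplasmic reticulum (ER), out of 19937 genes measured in newborn mouse olfactory epithelium that has or lacks Atf5. They were taken by symbol from a list of ER chaperones, disulfide and proline-isomerising enzymes, translocation proteins, stress factors and proteins of ER-associated degradation. All 38 lay on rows with exactly 1 gene symbol, 2 of them (Ero1l and Ero1lb) under the newer symbols Ero1a and Ero1b, and no filter on low values removed any. Pdia4 and Sec61b had more than 1 probe set, and for these the probe set brightest on average was used.

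The tissue, nasal septa and turbinates, was taken at P0, the day of birth, from offspring of Atf5+/- parents. The 2 groups were Atf5-/- pups (the knockout) and Atf5+/+ pups (the wild type), both of the C57BL6 strain. Each genotype had 3 samples, each pooled from 3 pups of different litters and hybridised to 1 array, so litter and pup differences are averaged within a pool. Levels are on the log2 scale, where a difference of 1 is a doubling; a change is the knockout mean minus the wild-type mean, and a single value in brackets after a gene is its change. P-values measure the spread between these pools. The knockout affects every cell of the pup, and the dissected tissue holds bone, cartilage, glands and other cells beside the epithelium.

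The ER lumen is where secreted and membrane proteins fold. BiP, an Hsp70 chaperone encoded by Hspa5, binds unfolded chains with the help of J-domain cochaperones and nucleotide exchange factors, the lectins calnexin and calreticulin hold glycoproteins, and protein disulfide isomerases form and shuffle disulfide bonds. Chains that fail to fold are recognised by the Edem proteins and by Os9 and Erlec1, and pass out through the Hrd1 complex (Syvn1, Sel1l, the derlins and Herpud1) to the proteasome. When unfolded protein builds up, the sensors Ire1 (Ern1), Atf6 and Perk (Eif2ak3) raise these genes through Xbp1, cleaved Atf6 and Atf4. In olfactory neurons this machinery is known above all for odorant receptors, which fold poorly in the ER and whose first expression is tied to Perk and Atf5.

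Many of these genes carry a stress element in their promoter, which is shown here because it is the sequence through which Atf6 and Xbp1 are known to raise them together. Promoter windows from 250 bases before to 50 bases after the gene's start were taken from RefSeq (GRCm38.p6), and 32 of the 38 genes had at least 1. The ER stress response element (ERSE, CCAAT and CCACG with 9 bases of any kind between them, searched on both strands) stood in 10 of the 32 (31.2%), against 0.137% of the 27025 genes with a window. Its elements are printed in the direction of the motif with 8 flanking bases on each side, and capitals mark the fixed letters:
Hspa5: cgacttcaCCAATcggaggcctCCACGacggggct
Hsp90b1 (far from the start): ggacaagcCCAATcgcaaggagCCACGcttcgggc
Hsp90b1 (near the start): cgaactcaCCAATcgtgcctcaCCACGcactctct
Dnajc3: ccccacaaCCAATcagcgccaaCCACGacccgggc
Calr: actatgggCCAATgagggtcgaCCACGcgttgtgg
Canx: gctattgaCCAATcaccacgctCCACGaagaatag
Pdia6: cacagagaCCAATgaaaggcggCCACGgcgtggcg
Ero1b: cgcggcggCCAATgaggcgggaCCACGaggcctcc
Creld2: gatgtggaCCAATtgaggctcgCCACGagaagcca
Syvn1: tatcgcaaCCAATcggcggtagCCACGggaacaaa
Derl3: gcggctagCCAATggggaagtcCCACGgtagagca
The related ERSE-II (ATTGG and CCACG with 1 base between them, the latter also the end of ERSE) stood in another 2 genes, against 0.0444% of all:
Dnajb11: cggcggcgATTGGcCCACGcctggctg
Herpud1: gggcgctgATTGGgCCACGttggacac
In Hspa5 the full match lay 65 to 47 bases before the start (chr2:34772025-34772043, plus strand), and in Dnajb11 the full match lay inside the first transcribed bases. Near matches were not searched or marked, so the capitals do not count all possible elements of a promoter. By role, ERSE or ERSE-II stood in 6 of 9 chaperone genes with a window, 3 of 10 disulfide and isomerase genes, 3 of 9 degradation genes, and none of the 2 translocon genes or the stress sensor and factor. Outside the 38 genes it stood in 1 of 102 other ER genes with a window, Calr4, and in 0 of 13 cytosolic chaperones. The unfolded protein response element TGACGTGG and the palindrome TGACGTCA were in none of the 32, against 0.714% and 2.03% of all genes, while the former stood in 8 of the 102 other ER genes (7.84%). The Atf4-type motif TGATGNAA was in 1, Herpud1, against 4.51%. These matches are a description of letters in the window, and no match says only that the letters are not in it.

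A pair of whole windows is given for comparison, since Hspa5 is the best known carrier of the element and Dnajb9 is the gene that differed most between genotypes. Hspa5 lies on the plus strand (chr2:34771840-34772139) and Dnajb9 on the minus strand (chr12:44210019-44210318); both are printed along the gene, with the ERSE letters in capitals:
Hspa5: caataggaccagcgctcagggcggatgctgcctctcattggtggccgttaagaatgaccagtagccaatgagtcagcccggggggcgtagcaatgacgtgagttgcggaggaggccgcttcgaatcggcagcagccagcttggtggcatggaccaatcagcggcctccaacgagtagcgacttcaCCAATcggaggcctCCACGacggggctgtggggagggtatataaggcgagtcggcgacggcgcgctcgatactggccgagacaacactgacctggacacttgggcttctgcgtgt
Dnajb9: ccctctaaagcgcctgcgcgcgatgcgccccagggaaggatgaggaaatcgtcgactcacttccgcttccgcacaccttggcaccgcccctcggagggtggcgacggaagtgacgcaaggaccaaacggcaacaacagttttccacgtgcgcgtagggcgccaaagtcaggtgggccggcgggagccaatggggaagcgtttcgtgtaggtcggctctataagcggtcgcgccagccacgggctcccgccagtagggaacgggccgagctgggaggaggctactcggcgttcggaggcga
The Dnajb9 window holds neither ERSE nor ERSE-II in full.

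The labels and the tissue were checked on the targeted gene and on cell markers. Atf5 was at 9.43, 9.44 and 9.50 in knockout arrays and 10.54, 10.96 and 10.63 in wild-type arrays, 2.38-fold lower (95% interval 2.03 to 2.80, limma adjusted p = 0.000499). Whether this probe set lies in the deleted stretch is not given, so the value checks the labels only in part. Array medians were 8.67 to 8.72, and Pearson correlations over all rows were 0.992 to 0.994 within a genotype and 0.988 to 0.992 between genotypes. Of 10 marker genes of mature olfactory neurons, 9 fell in the knockout, with array means of 9.07 to 9.19 against 10.69 to 11.01. All 5 sustentacular cell markers had changes below 0 (array means 11.62 to 12.00 for knockout and 11.84 to 12.27 for wild-type arrays). None of them passed without the replicate block, and with it Cyp2g1 was lower (-0.36, limma adjusted p = 0.076, with the block 0.0114; 0.0114 to 0.267 over the alternatives). Such arrays measure RNA of a whole tissue, so fewer cells of a type and less RNA per cell cannot be told apart.

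The comparison of genotypes asks whether ER folding and degradation transcripts differ in the newborn olfactory epithelium without Atf5. None of the 38 genes passed the test in either direction (limma, adjusted p under 0.05 over all 19937 genes), where 3.74% of all genes were called, 3.24% lower and 0.502% higher in the knockout. At an unadjusted p under 0.05 there were 3, Dnajb9, Dnajb11 and Fkbp14, against 16.1% of all genes. In a fit blocked on replicate number 1 of the 38 passed, Dnajb9, which was lower, against 6.57% of all genes (4.46% lower, 2.11% higher). Knockout and wild-type arrays did not overlap for 7 of the 38, against 21.1% of all genes. The median log2 change was -0.05 over the 38 genes and 0.01 over all genes, and the extremes were Dnajb9 at -0.43 and Fkbp14 at 0.20. Changes were below 0 for 27 of the 38 (71.1%), against 47.0% of all genes, the share to set beside later counts below 0. The 95% interval of the change lay within 1.5-fold in both directions for 37 of the 38, all but Dnajb9, as it did for 95.4% of all genes. It lay within 1.25-fold for 25 (65.8%; 74.8% of all genes). A p that misses the threshold does not show equal levels, and these intervals give the differences the 6 arrays leave room for.

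**Figure D1:**
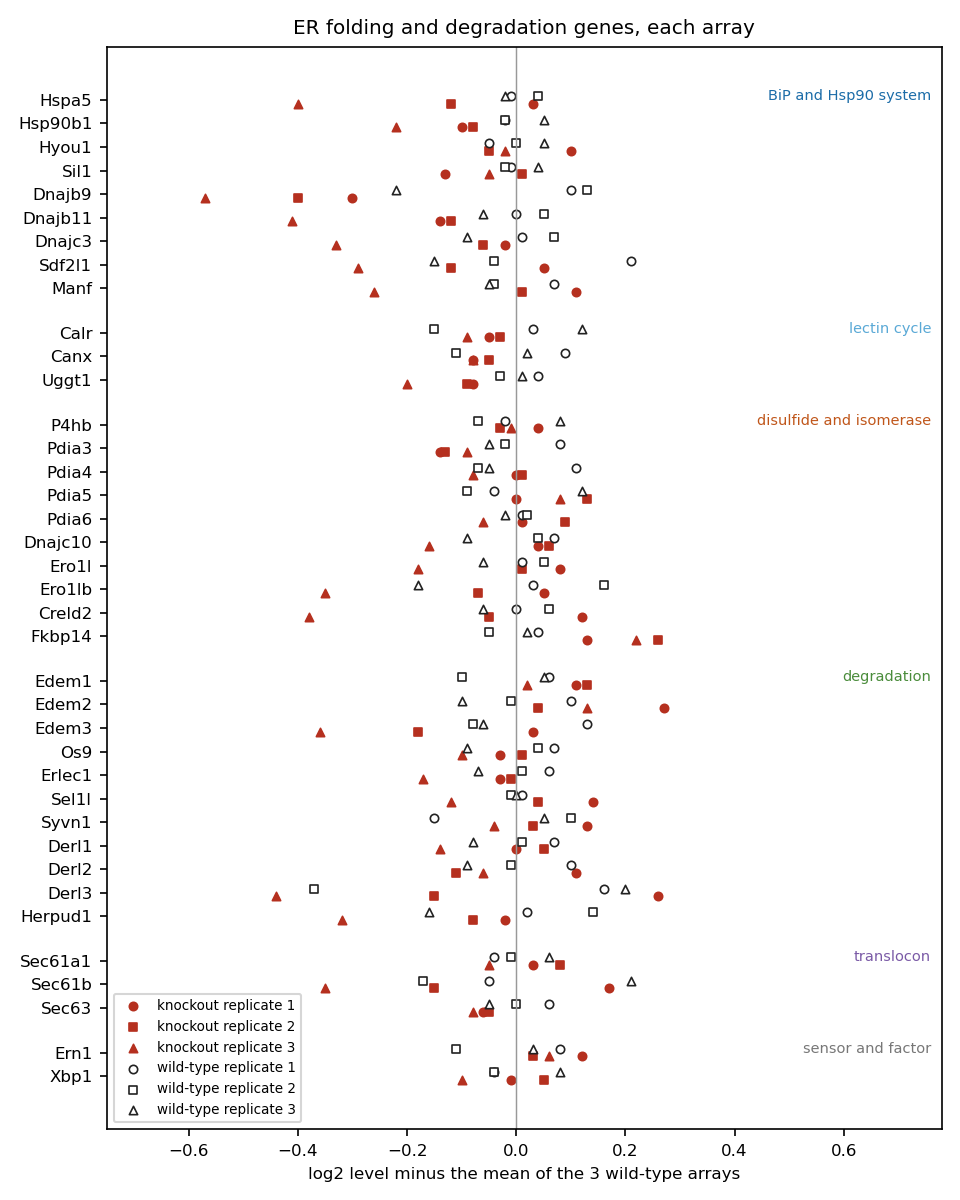
Level of each of the 38 genes in each array, as log2 difference from the mean of the 3 wild-type arrays (x axis); filled symbols are knockout arrays, open symbols wild-type arrays, and the symbol shape gives the replicate number. Most genes show overlapping groups, Dnajb9 lies lowest in the knockout, and knockout replicate 3 (filled triangles) is the lowest array for 25 genes.

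The chaperones of the BiP and Hsp90 system mostly had changes below 0, and none passed. Of these 9 genes 8 lay below 0 (88.9%, against 47.0% of all genes), with a median of -0.13. In 3 the groups did not overlap, all with the knockout lower (33.3%, against 10.3% of all genes in that direction). Dnajb9 (ERdj4), a J-domain cochaperone of BiP and a textbook Xbp1 target, was at 10.80, 10.70 and 10.53 in knockout arrays and at 11.20, 11.23 and 10.88 in wild-type arrays. Every knockout array was below every wild-type array, although wild-type replicate 3 came within 0.1 of the highest knockout array. It was 1.35-fold lower in the knockout (1.14 to 1.59), a log2 change of -0.43 (SE 0.11) with an adjusted p of 0.0665 by limma. With the replicate block the adjusted p was 0.00601, and over all 14 alternatives it ran from 0.00601 to 0.238. It also passed after quantile normalization (0.0338), after median centring (0.046), with a trended and robust prior (0.0477) and without wild-type replicate 3 (0.016), but not with any other array left out. Markers of mature olfactory neurons were lower in the same arrays, as were 3 of 5 markers of immature neurons (4 with the block), with array means of 10.35 to 10.55 for knockout and 10.77 to 10.96 for wild-type arrays; their part in the level of Dnajb9 was not tested.

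Dnajb11 (ERdj3), a cochaperone that hands unfolded chains to BiP and bears ERSE-II, was at 10.33, 10.35 and 10.06 in knockout arrays and 10.47, 10.52 and 10.41 in wild-type arrays. The groups did not overlap, and knockout replicate 3 lay well below the other knockout arrays. The change was -0.22 (SE 0.09, limma adjusted p = 0.243). Hspa5 itself was at 12.62, 12.47 and 12.19 in knockout arrays and 12.58, 12.63 and 12.57 in wild-type arrays. The 3 wild-type arrays lay within 0.06 of each other, whereas the knockout arrays spanned 0.43, and the highest of them was above 2 wild-type arrays. Its change was -0.17 (SE 0.10, limma adjusted p = 0.465), with a 95% interval of the fold (knockout over wild type) from 0.759 to 1.04.

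Hsp90b1 (Grp94), the ER Hsp90, was at 12.17, 12.19 and 12.05 in knockout arrays and 12.25, 12.25 and 12.32 in wild-type arrays. These groups did not overlap, and the change was -0.14 (SE 0.06, limma adjusted p = 0.344). The nucleotide exchange factors of BiP lay close to 0, Hyou1 (Grp170) at 0.01 and Sil1 at -0.06. Dnajc3 (p58IPK), a cochaperone and known inhibitor of Perk signalling, was at -0.13, Sdf2l1, a partner of the J-domain proteins, at -0.13, and the secreted stress factor Manf at -0.05, each with overlapping groups.

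In the lectin cycle, Calr (calreticulin) was at 12.62, 12.64 and 12.58 in knockout arrays and 12.70, 12.52 and 12.79 in wild-type arrays. Its groups overlapped, since wild-type replicate 2 was the lowest of the 6 arrays, and the change was -0.06 (SE 0.08). Canx (calnexin) was at 12.97, 13.00 and 12.97 against 13.14, 12.94 and 13.07, a change of -0.07 (SE 0.07), again with wild-type replicate 2 lowest. Uggt1, the glucosyltransferase that returns misfolded glycoproteins to the lectins, was at 10.75, 10.74 and 10.63 in knockout arrays and 10.87, 10.80 and 10.84 in wild-type arrays. Its groups did not overlap and its change was -0.13 (SE 0.06, limma adjusted p = 0.37). The intervals of all 3 lectin cycle genes lay within 1.25-fold. For the 12 chaperone genes of both kinds together the median was -0.13.

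Disulfide and isomerase enzymes were centred nearer to 0. The median over these 10 genes was -0.02, with 6 below and 4 above 0, and the intervals of 7 lay within 1.25-fold. P4hb (Pdi), the founding disulfide isomerase and also a subunit of collagen prolyl hydroxylase, was at 12.39, 12.32 and 12.34 in knockout arrays and 12.33, 12.28 and 12.43 in wild-type arrays. Its groups overlapped in full, and the fold of knockout over wild type had a 95% interval from 0.907 to 1.11. Pdia3 (ERp57), the isomerase that works with the lectins, was at 12.44, 12.45 and 12.49 against 12.66, 12.56 and 12.53. All its knockout arrays were below the wild-type ones, with a change of -0.12 (SE 0.06, limma adjusted p = 0.377).

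Fkbp14, a prolyl isomerase linked to collagen folding, stood apart on the upper side. It was at 9.45, 9.58 and 9.54 in knockout arrays and 9.36, 9.27 and 9.34 in wild-type arrays. It was the only one of the 38 whose knockout arrays were all above the wild-type arrays (2.63%, against 10.8% of all genes in that direction), by 0.20 (SE 0.06, limma adjusted p = 0.153; 0.127 to 0.375 over the alternatives). The remaining isomerases Pdia4 (-0.02), Pdia5 (0.07) and Pdia6 (0.01) and the disulfide reductase Dnajc10 (ERdj5, -0.02) lay near 0. So did the oxidase Ero1l (-0.03), while its relative Ero1lb was at -0.13 and the stress-induced Creld2 at -0.10. In Creld2 the knockout arrays were at 11.27, 11.10 and 10.77 and the wild-type arrays at 11.15, 11.21 and 11.09, so knockout replicates 1 and 3 lay on opposite sides of the wild type. The second probe set of Pdia4 was at 0.04, so the 2 differ in sign and neither passed.

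Among degradation genes 7 of 11 changes were below 0 and 4 above, the median was -0.03, and the groups overlapped in every gene. The 3 mannosidase-like Edem proteins, which mark misfolded glycoproteins for removal, lay on both sides of 0. Edem1, an Xbp1 target, was at 10.46, 10.48 and 10.37 in knockout arrays and 10.41, 10.25 and 10.40 in wild-type arrays, a change of 0.09 (SE 0.07). Edem2 was at 10.06, 9.83 and 9.92 against 9.89, 9.78 and 9.69, a change of 0.15 (SE 0.08, limma adjusted p = 0.415). Edem3 was at 10.70, 10.49 and 10.31 against 10.80, 10.59 and 10.61, a change of -0.16 (SE 0.10, limma adjusted p = 0.489). Its knockout replicate 1 exceeded 2 wild-type arrays, and the other knockout arrays lay below all of them.

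The lectins of degradation, Os9 (-0.04) and Erlec1 (-0.07), and the core of the Hrd1 complex, Sel1l (0.02), the ubiquitin ligase Syvn1 (0.04), Derl1 (-0.03) and Derl2 (-0.02), all had changes within 0.1 of 0. Herpud1, a stress-induced adaptor of that complex with ERSE-II, was at 11.84, 11.78 and 11.54 in knockout arrays and 11.88, 12.00 and 11.70 in wild-type arrays. Replicate 3 was the lowest array in both genotypes, the groups overlapped, and the change was -0.14 (SE 0.10). Derl3, the derlin of secretory cells, varied most within a genotype, with knockout values of 10.25, 9.84 and 9.55 and wild-type values of 10.15, 9.62 and 10.19. Its change of -0.10 has a wide 95% interval, from 0.691 to 1.25 as a fold of knockout over wild type.

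In the translocon, Sec61a1, the channel subunit, was at 12.94, 12.99 and 12.86 in knockout arrays and 12.87, 12.90 and 12.97 in wild-type arrays, a change of 0.02 (SE 0.06). Sec63, the membrane J-domain partner of the channel, was at 11.01, 11.02 and 10.99 against 11.13, 11.07 and 11.02, a change of -0.07 (SE 0.06). The knockout arrays of Sec63 were below the wild-type arrays only beyond the second decimal. Sec61b was at 10.08, 9.76 and 9.56 in knockout arrays and 9.86, 9.74 and 10.12 in wild-type arrays on its brightest probe set, a change of -0.11 (SE 0.14), while its other probe sets were at -0.01 and 0.21. The sensor Ern1 (Ire1) was at 9.82, 9.73 and 9.76 against 9.78, 9.59 and 9.73, a change of 0.07 (SE 0.07). Xbp1 was at 12.02, 12.08 and 11.93 against 11.99, 11.99 and 12.11, a change of -0.02 (SE 0.07). This level is that of the transcript as a whole, and Xbp1 splicing, the step that Ire1 controls, was not analysed here.

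**Figure D2:**
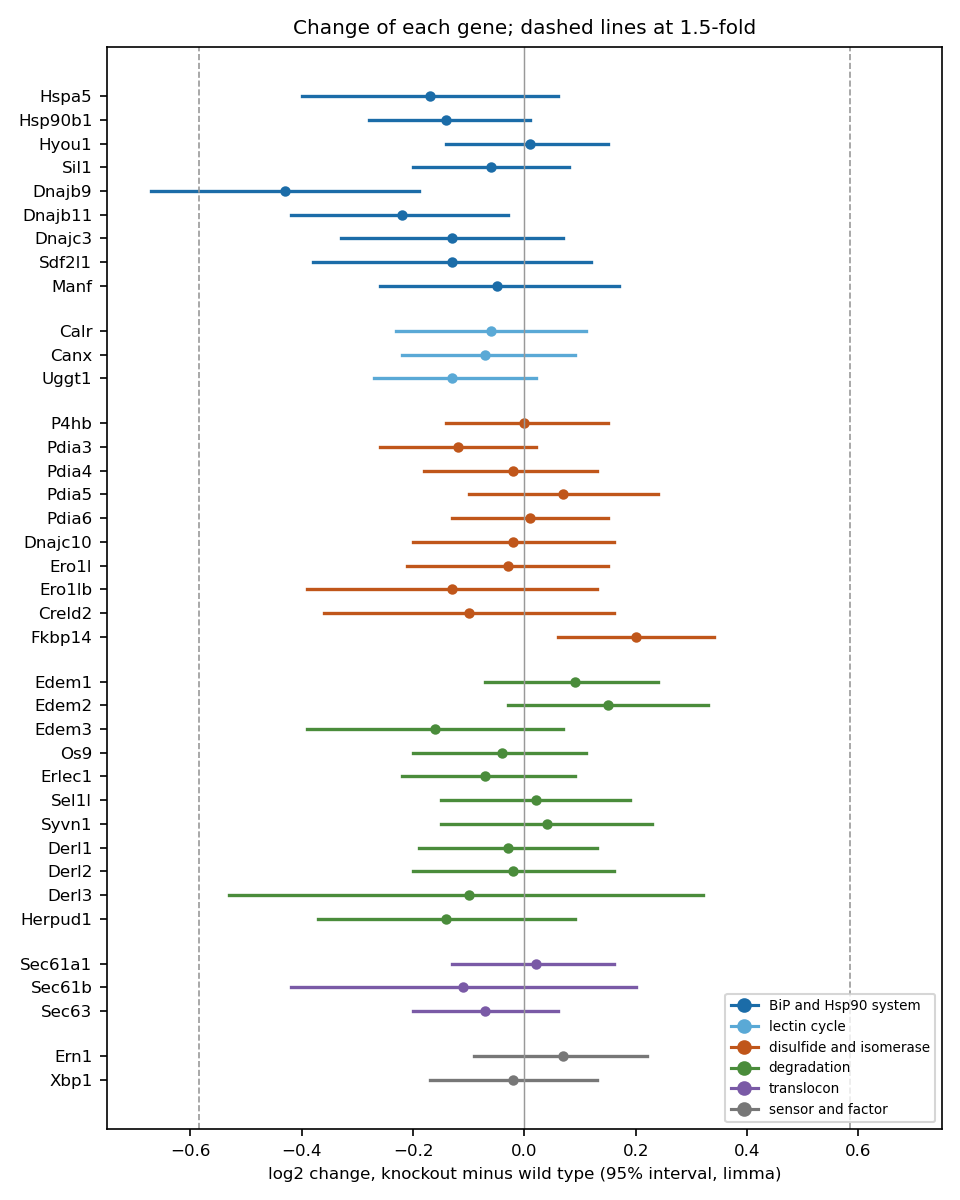
Log2 change of each of the 38 genes, knockout minus wild type, with its 95% interval from limma; colours give the role and the dashed lines mark 1.5-fold. Only the interval of Dnajb9 crosses a dashed line, and its estimate is -0.43.

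Chaperones, enzymes and degradation genes differed little in their typical change, and the difference was not tested. The medians were -0.13, -0.02 and -0.03 for chaperones, disulfide and isomerase enzymes and degradation genes, against 0.01 over all genes. The array means of the 12 chaperones were 11.19, 11.15 and 11.00 in knockout arrays and 11.28, 11.23 and 11.22 in wild-type arrays, so all knockout arrays lay below. For the 10 enzymes they were 10.84, 10.83 and 10.70 against 10.83, 10.81 and 10.77, and for the 11 degradation genes 10.74, 10.63 and 10.51 against 10.71, 10.62 and 10.62, and these groups overlapped. Grouped by a factor known to raise them, 11 Atf6 targets had a median of -0.10 (9 below 0) and 6 Xbp1 targets one of -0.06 (4 below 0), with no call in either group without the block. The Atf6 group was Hspa5, Hsp90b1, Calr, Hyou1, Pdia4, Sel1l, Herpud1, Creld2, Manf, Dnajb11 and Sdf2l1. Dnajb9, Edem1, Dnajc3, Derl2, Sec61a1 and Sec61b made up the Xbp1 group. Each gene was put in at most 1 group, although both factors act through ERSE, so the groups do not separate the factors. Within the Xbp1 targets Dnajb9 at -0.43 and Edem1 at 0.09 lay on opposite sides of 0.

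Many of the lower values lay in 1 array. Knockout replicate 3 was the lowest of all 6 arrays for 25 of the 38 genes (65.8%), against 21.5% of all genes, and the lowest knockout array for 28 (73.7%; 44.6% of all genes). The latter share differed between other lists. It was 81.8% among 22 further degradation genes and 80.0% among 20 translocation genes. Further chaperones had 76.9% (13 genes) and cytosolic chaperones 80.0% (15). Lower shares were 56.2% for glycan addition (16 genes), 42.9% for export and retrieval (14) and 38.5% for stress signalling (13). Further disulfide and isomerase enzymes had 33.3% (21 genes), collagen folding genes 9.09% (11) and all 130 further ER genes 55.4%. Knockout replicate 3 was the lowest of all 6 arrays for 11, 8, 5 and 4 genes of the first 4 lists. Of all 130 it was the lowest for 42 (32.3%), and the difference from the 38 genes was not tested. Without knockout replicate 3 the median over the 38 genes was 0.01, that of the chaperones -0.06, that of the enzymes 0.04 and that of the degradation genes 0.02. Hspa5 moved from -0.17 to -0.05 and Dnajb11 from -0.22 to -0.13, while Dnajb9 was still at -0.36. Knockout replicate 3 was singled out for its low values, so leaving it out raises such medians by construction. Not every lower gene followed it, and in Pdia3 it was the highest knockout array (12.49). In knockout replicate 3 the 5 sustentacular cell markers had their lowest mean (11.62; the other arrays 11.84 to 12.27). Of these, Cyp2g1, Cyp1a2 and Sult1c1 were lowest in that array, but Ermn and Cbr2 were lowest in wild-type replicate 3. Cyp1a2 varied most, from 8.76 in that knockout array and 8.85 in wild-type replicate 2 to 10.45 in wild-type replicate 1. The 7 bone and cartilage markers had their highest mean in knockout replicate 3 (11.46; the others 11.11 to 11.27). Of the latter, the bone genes Col1a1, Col1a2, Ibsp and Sp7 were highest in that array, but the cartilage genes Col2a1, Acan and Col9a1 were not. Enamel markers, of which 2 of 6 fell (3 with the block), had array means of 7.69 to 8.32 for knockout and 8.54 to 9.90 for wild-type arrays, and knockout replicate 3 was the highest knockout array among them. Both calls were lost under some alternatives, with limma adjusted p up to 0.23 for Enam and 0.271 for Amelx. The wild-type mean of 8.54 was that of replicate 3, and the other wild-type arrays were at 9.90 and 9.65. Of 7 olfactory gland markers and 4 plasma and B cell markers none passed (with the block 1 gland marker, Obp1a, was lower), with array means of 11.59 to 11.72 against 11.64 to 11.90 and of 7.38 to 7.45 against 7.43 to 7.49. The part of these cells in the values of the ER genes was not tested.

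**Figure D3:**
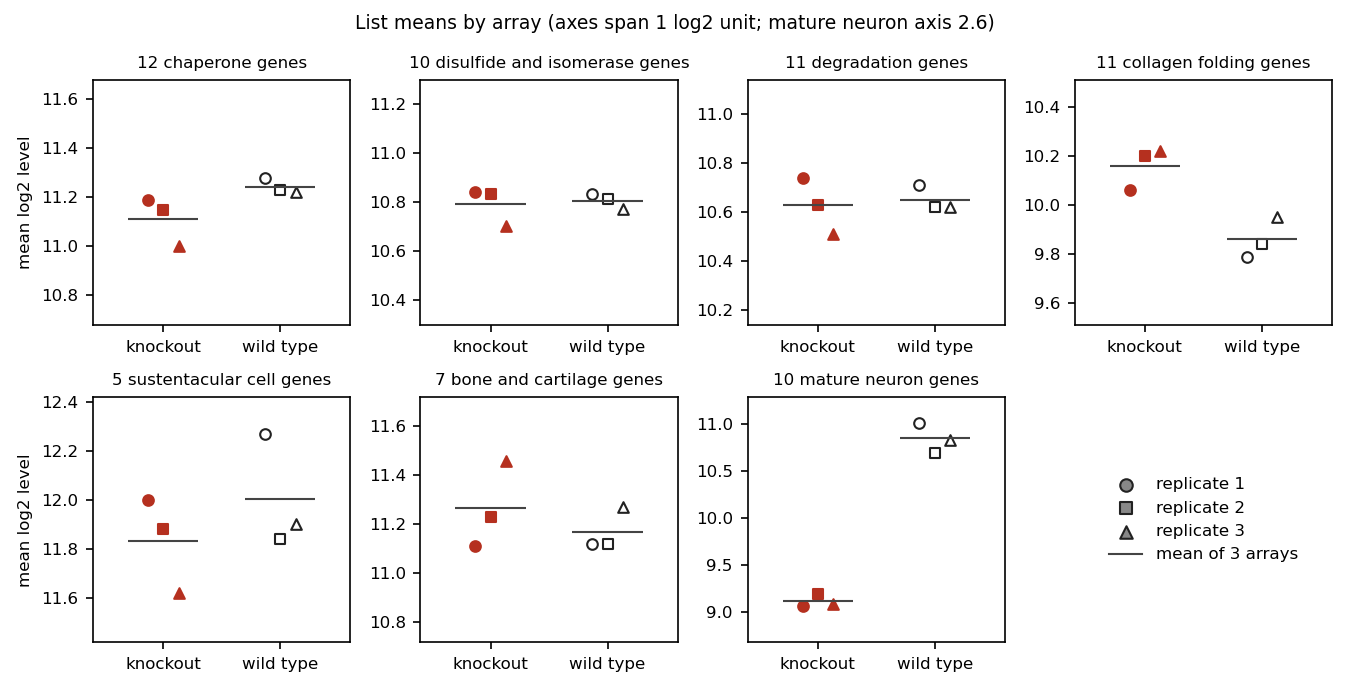
Mean log2 level of each gene list in each array (y axis), for knockout (filled) and wild-type (open) arrays, with the symbol shape giving the replicate and a line at the mean of 3 arrays. Knockout replicate 3 (triangle) is lowest for chaperones (11.00), enzymes (10.70), degradation genes (10.51) and sustentacular markers (11.62), and highest for bone and cartilage markers (11.46).

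Genes with a stress element in the promoter had a slightly lower median change than those without. The 12 genes with ERSE or ERSE-II had a median change of -0.12 (-0.22 to 0.04), with 10 below 0. The 20 genes whose window held neither had a median of -0.02 (-0.43 to 0.20), with 13 below 0, and the 6 genes without a window one of -0.04. The genes at both ends, Dnajb9 and Fkbp14, were among those with neither element. Element and role overlap: the chaperones Hspa5, Hsp90b1, Dnajc3, Dnajb11, Calr and Canx were among the 12, and Dnajb9, Sdf2l1 and Uggt1 among the 20. The median over all chaperones was -0.13. The chaperones with neither element were at -0.43 (Dnajb9), -0.13 (Sdf2l1) and -0.13 (Uggt1). Outside the chaperones, the genes with an element were Herpud1 (-0.14), Ero1lb (-0.13), Creld2 (-0.10), Derl3 (-0.10), Pdia6 (0.01) and Syvn1 (0.04). The separate parts of element and role were not tested. These classes share the same 6 arrays, and their difference is a description.

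**Figure D4:**
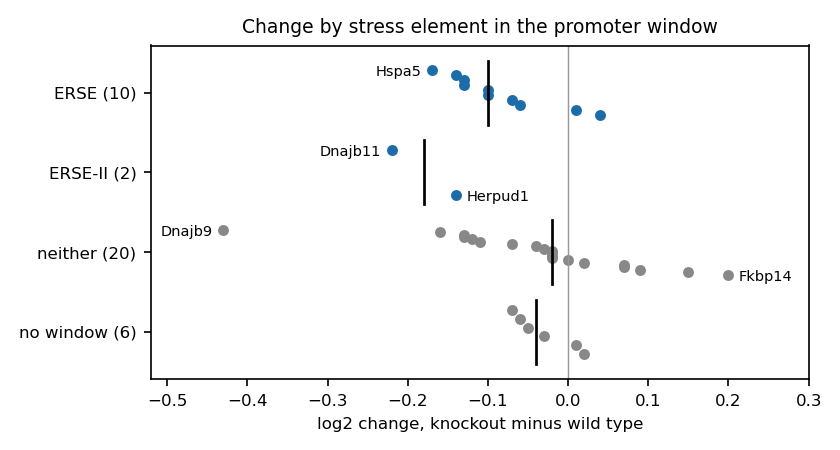
Log2 change, knockout minus wild type (x axis), of the 38 genes by the stress element in their promoter window, with the number of genes in brackets and a bar at the median. The ERSE genes run from -0.17 (Hspa5) to 0.04, and Dnajb9 (-0.43) and Fkbp14 (0.20) stand in the class with neither element.

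Of 130 further ER genes, 2 fell, 2 rose and 126 did not pass, beside 3.74% of all genes called, and their median change was 0.04. With the replicate block 5 were lower and 8 higher, beside 4.46% and 2.11% of all genes, and all 8 belonged to collagen folding. An unadjusted p under 0.05 was found for 31 of the 130, beside 16.1% of all genes. These were all 11 collagen folding genes and 20 of the other 119. Of the 13 sensors, proteases and factors of stress signalling none passed (2 at an unadjusted p under 0.05), and Atf4, which Perk signalling raises, had the lowest p, with a change of 0.18 (SE 0.07, limma adjusted p = 0.264). The other of the 2, Ern2, lay as far in the opposite direction, at -0.18 (SE 0.07, limma adjusted p = 0.266). Atf6 was at 0.05 and Eif2ak3 (Perk) at 0.03. These are transcript levels, and Atf4 protein, Atf6 cleavage and Perk activity were not measured. None of 22 further degradation genes passed, nor of 16 genes of glycan addition, 14 of export and retrieval, or 20 of translocation. Unadjusted p values under 0.05 numbered 3, 0, 1 and 4 in these lists. The lowest p values belonged to Ubxn8, a membrane adaptor of the degradation machinery (0.22), Ostc, a subunit of the oligosaccharyltransferase (0.13), Kdelr3, a KDEL receptor that returns ER proteins from the Golgi (0.26), and Spcs3, a signal peptidase subunit (-0.32, limma adjusted p = 0.0796). Spcs3 passed with the replicate block (adjusted p = 0.0143; 0.0143 to 0.263 over the alternatives).

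The genes that fell were relatives of the listed genes, 1 of 13 further chaperones (list median 0.00) and 1 of 21 further disulfide and isomerase enzymes (list median 0.04). Clgn (calmegin), a lectin chaperone related to calnexin, was at 10.20, 10.31 and 9.98 in knockout arrays and 11.37, 11.31 and 11.25 in wild-type arrays. The gap between the groups was wide, and Clgn fell 2.21-fold (1.93 to 2.54, limma adjusted p = 0.000417; 0.000119 to 0.00279 over the alternatives), while the change of Canx was -0.07. Mature neuron markers fell in the same comparison, and their part in the level of Clgn was not tested. Calr4, a relative of calreticulin named after its values were seen, was at 8.04, 7.69 and 7.12 against 8.81, 8.33 and 8.20. It did not pass (-0.83, SE 0.22, limma adjusted p = 0.0885), but did with the replicate block (0.00131; 0.00131 to 0.287 over the alternatives) and without knockout replicate 1 (0.0418). Tmx3, a membrane-bound disulfide isomerase, was at 10.31, 10.35 and 10.12 against 10.79, 10.64 and 10.52, and fell 1.31-fold (1.14 to 1.51, limma adjusted p = 0.0476). That call was kept without wild-type replicate 3 and lost when any other single array was left out (0.00919 to 0.175 over all alternatives).

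Collagen folding was the ER list that lay highest. All 11 of its genes had a change above 0, with a median of 0.31, and in 10 (90.9%, against 10.8% of all genes) the knockout arrays were all above the wild-type arrays. By the test 2 rose (0.502% of all genes), and 8 were higher with the replicate block (2.11%). The list was chosen with earlier results of these data known, and its genes share the same 6 arrays, so these shares are a description. Plod2, a collagen lysyl hydroxylase, was at 10.58, 10.60 and 10.55 in knockout arrays and 10.28, 10.14 and 10.11 in wild-type arrays, and rose 1.32-fold (1.19 to 1.46, limma adjusted p = 0.00976). Plod3, another such hydroxylase, was at 9.78, 9.89 and 9.78 against 9.53, 9.47 and 9.58, and rose 1.22-fold (1.11 to 1.35, limma adjusted p = 0.0383), a call lost whichever single array was left out (0.0564 to 0.129) and after quantile normalization (0.0526). Bone and cartilage markers had array means of 11.11 to 11.46 for knockout and 11.12 to 11.27 for wild-type arrays, and none of 7 passed. Endothelial markers, of which none of 4 passed, had means of 10.29 to 10.33 against 10.03 to 10.25. All 6 skeletal muscle markers had changes above 0 (median 0.49), with means of 10.24 to 10.58 for knockout and 9.07 to 10.33 for wild-type arrays, and the lowest was wild-type replicate 1. Without the block none of the muscle markers passed, and with it Myh3 was higher, as was the red blood cell marker Alas2 (0.39, limma adjusted p = 0.307, with the block 0.00982; 0.00982 to 0.664 over the alternatives). Wild-type replicate 1 was also the lowest array for 5 of the 11 collagen folding genes. The part of these cells was not tested. Among the 38 genes, P4hb and Fkbp14, which also serve collagen, were at 0.00 and 0.20. Outside the ER, none of 15 cytosolic chaperones passed (1 at an unadjusted p under 0.05, Bag3 at 0.15), with a median of 0.10.

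**Figure D5:**
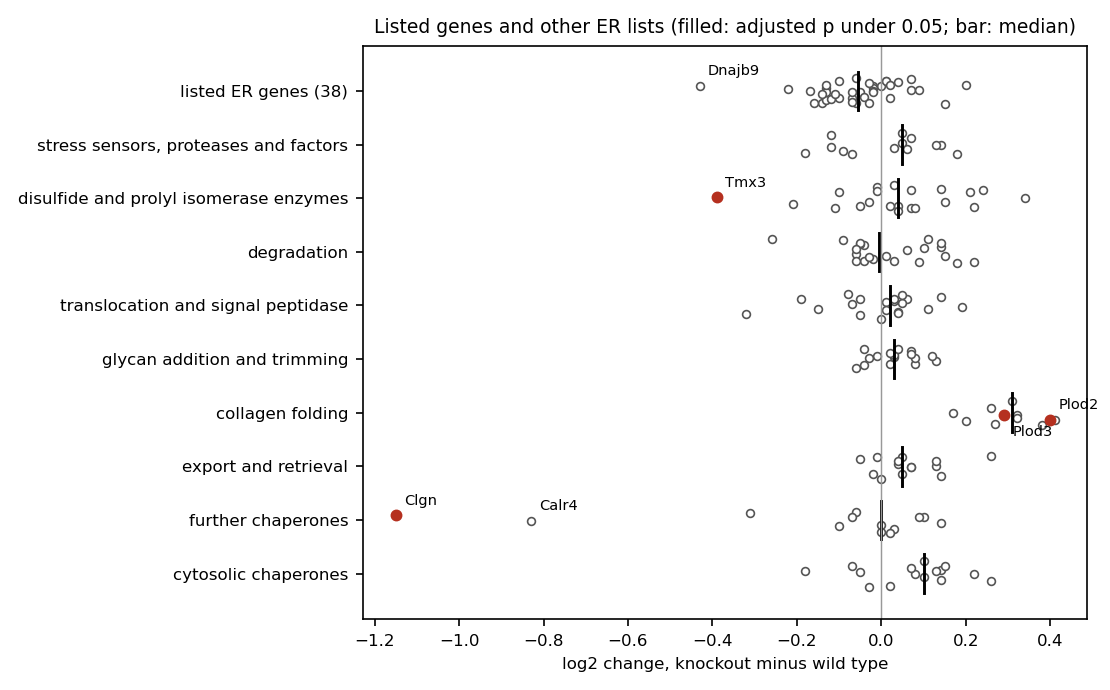
Log2 change, knockout minus wild type (x axis), of the 38 listed genes and of 9 further lists, 1 point per gene, filled where the adjusted p was under 0.05, with a bar at the list's median. The 38 genes hold no filled point and have a median of -0.05, Clgn and Tmx3 fell, and the collagen folding genes all lie above 0 with a median of 0.31.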

How the data were processed

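Each of the 6 samples (3 Atf5-/-, 3 Atf5+/+) was measured on 1 whole-transcript array in 1 colour. Values deposited by the authors run from 4.50 to 14.7 and were taken as log2 levels; RMA, affy and limma are named, without versions, per the submitters' processing notes. The log base and genome build were not given in the sources used here. RMA equalises array distributions, so a change shared by most genes would not show. Of 34760 rows, 21640 had 1 gene symbol in the platform annotation, giving 19937 genes; no column of other samples was present (0).

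The genotypes were compared with limma 3.58.1 (lmFit, eBayes without trend, 2-sided) in R 4.3.3. P-values were adjusted by Benjamini-Hochberg across the 19937 genes and called under 0.05; the procedure was tested on simulated data. Intervals are at 95%. The arrays' number limits precision. The 38 genes, their roles and all lists were chosen with earlier results of these data known. Values in every array are given for genes past the threshold, genes whose groups did not overlap, the first listed gene of a role and its 2 lowest p-values; of each further list, up to 3 calls per direction or the lowest p. Creld2, Herpud1, Derl3, Calr4, Atf6, Eif2ak3 and Ern2 were added after their values were seen.

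Deviations from the group means correlated between arrays of the same replicate number at 0.295, 0.122 and 0.234, each above 0.1, so the numbers may pair the samples. That pairing rests on the data, since what samples of a number share is not in the labels. The main fit did not use it. Calls, intervals and adjusted p-values come from that unblocked fit unless the block or another alternative is named. A fit blocked on the number is quoted beside the counts and genes whose call it changed.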

Additional observations from a re-analysis of the deposited data

How the results depend on the processing

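The 14 alternatives were the replicate block, 2 other scalings, 2 filters on dim genes, another prior, 2 treatments of probe sets, and each array left out. The block changed the call of Dnajb9, Calr4 and Spcs3 among the ER genes given by name, and of 7 cell markers, of which Stmn2, Cyp2g1, Obp1a, Fabp7 (glia) and Ambn were lower and Myh3 and Alas2 higher; it gave 421 higher and 889 lower genes in all, 1 listed gene lower, and 8 higher and 5 lower among the other ER genes. Quantile normalization gave 1 listed gene lower, and 1 higher and 4 lower among the others; median centring and the trended, robust prior gave 1 listed gene lower each. With genes above the 30th percentile of mean level 358 fell in all, above the median 60 rose and 226 fell, and with either filter, or with every probe set tested on its own, 1 other ER gene fell; fewer genes are tested under the filters, and Ero1lb drops out under the second. With 1 array left out, counts ran from 27 to 127 genes higher, 383 to 584 lower, 0 to 1 listed genes lower, 1 to 2 other ER genes higher and 1 to 3 lower, and the median of the disulfide and isomerase enzymes from -0.05 to 0.04.

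Of 531 values of listed genes under an alternative, 38 changed sign, none of them past the threshold in either setting. They belong to genes near 0: under quantile normalization and median centring Hyou1 was at -0.04 and -0.01, P4hb at -0.02 and -0.01, Pdia6 at -0.01 and 0.00, and Sel1l under the first at -0.01; as the mean of probe sets Pdia4 was at 0.01 and Sec61b at 0.03. With 1 array left out the ranges were -0.04 to 0.04 for Hyou1, -0.12 to 0.06 for Manf, -0.03 to 0.05 for P4hb, -0.05 to 0.03 for Pdia4, -0.03 to 0.05 for Pdia6, -0.07 to 0.05 for Dnajc10, -0.08 to 0.04 for Ero1l, -0.21 to 0.04 for Creld2, -0.04 to 0.09 for Sel1l and for Syvn1, -0.07 to 0.02 for Derl1, -0.08 to 0.03 for Derl2, -0.29 to 0.06 for Derl3, -0.01 to 0.05 for Sec61a1, -0.25 to 0.01 for Sec61b and -0.06 to 0.02 for Xbp1. The cause of these shifts was not tested. With 3 arrays per genotype, the median SE over the listed genes was 0.074 on the log2 scale, and 13 of the 38 intervals reached beyond 1.25-fold.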
